A study of Mus musculus with 7 samples.

Results

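The 49 mouse genes described here encode the receptors for serotonin (Htr), dopamine (Drd), noradrenaline and adrenaline (Adra and Adrb) and acetylcholine (muscarinic Chrm and nicotinic Chrn). They were taken by symbol from the 21887 protein-coding genes that the RefSeq table of GRCm38.p6 places on the chromosomes, with Htra proteases left out. The rule uses gene symbols and no LAD value, though it was set with earlier results of these data known. Each gene was placed against a list of lamin-associated domains (LADs), stretches of chromatin that lie at the nuclear lamina, the protein mesh lining the nuclear envelope. The list came from CUT&RUN for Lamin B1, in which an antibody directs a nuclease fused to protein A/G to its target and the released DNA is sequenced. The cells were mouse embryonic fibroblasts, labelled iMEF, from independently derived lines of 1 mouse colony. The 7 libraries of the study comprised 2 against Lamin B1, 2 IgG controls, 1 against H3K14ac and 2 against H3K9me2, the last raised with separate antibodies. No genotype, treatment or strain is given in the labels, and only the name of the list calls the cells wild type. By its name, the list merges the 2 Lamin B1 libraries into 1 set of 1437 domains, so no value below has a replicate error, no difference was tested, and read depth is unknown. Expression was not measured in these files.

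Serotonin, dopamine, noradrenaline and adrenaline are monoamines made from single amino acids. Most of their receptors, and the muscarinic receptors, are G protein coupled receptors: those coupled mainly to Gs raise cyclic AMP, those coupled mainly to Gi lower it, and those coupled mainly to Gq release calcium through phospholipase C. Nicotinic receptors and the serotonin receptor subunits Htr3a and Htr3b instead form cation channels that open when the transmitter binds. The genes are best known for their use in neurons, muscle, heart and glands. Chromatin at the lamina is known to be mostly transcriptionally quiet, and which genes lie there differs in part between cell types.

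Of the 49 receptor genes, 11 (22.4%) had their midpoint in a LAD: Htr1a, Htr1b, Htr1f, Htr2c, Htr7, Drd2, Adra2a, Chrm2, Chrm3, Chrna6 and Chrna7. The background was 24.6% of the 21130 protein-coding genes whose midpoint lay between the first and the last LAD of their chromosome, so by midpoint the share of the receptor genes was near that of genes in general. It was lower with LADs shortened by 50 kb at both ends (7 of 49, 14.3%, against 21.3% of all genes) and with the whole gene required inside (14.3% against 22.5%). By the low-coordinate end of the gene it was 8 of 49 (16.3%, against 24.1%). With LADs separated by at most 250 kb joined, it stayed at 22.4%, against 28.3% of all genes. Without olfactory and vomeronasal receptors, which fill many LADs, the background was 19.8% of 19670 genes. Of the receptor genes, 48 lay between the first and last LAD of their chromosome. The exception was Adrb1, which lay beyond the last LAD of chromosome 19. The 11 genes sat in 11 different LADs, none of which held a second receptor gene. No part of 37 receptor genes overlapped a LAD, 7 lay wholly inside one, and 5 were crossed by a LAD border. Counted by any overlap with a LAD, the receptor genes gave 12 of 49 (24.5%), beside 5497 of the 21130 protein-coding genes. By this count too the share of the receptor genes was near that of genes in general, and slightly below it.

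The families differed in their counts. Of the serotonin receptor genes, 5 of 14 (35.7%) lay in LADs, of the muscarinic genes 2 of 5 (40%), of the dopamine receptor genes 1 of 5 (20%), and of the alpha adrenergic genes 1 of 6 (16.7%). The serotonin share depended on the point of the gene: as whole genes it was 2 of 14 (14.3%, against 22.5% of all genes) and by low-coordinate end 3 of 14 (21.4%, against 24.1%), both below the background. By start site (3 of 11, 27.3%, against 24.6%) and by high-coordinate end (4 of 14, 28.6%, against 24.2%) the serotonin share was above it. None of the 3 beta adrenergic genes and 2 of the 16 nicotinic genes (12.5%) lay there. Among receptors coupled mainly to Gi, which include the inhibitory autoreceptors on serotonin and dopamine neurons, 6 of 14 (42.9%) were in LADs, against 2 of 9 (22.2%) for Gq and 1 of 8 (12.5%) for Gs. The Gi count fell to 4 of 14 (28.6%, against 21.3% of all genes) with shortened LADs, which removed Adra2a and Drd2. It was 5 of 14 (35.7%) with LADs of at least 500 kb, as whole genes and by low-coordinate end. Of the 31 G protein coupled receptors 9 (29%) were in LADs, and of the 18 channel subunits 2 (11.1%). The share of the G protein coupled receptors was below that of all genes with shortened LADs (19.4% against 21.3%), as whole genes (19.4% against 22.5%) and by low-coordinate end (22.6% against 24.1%). It was above that of all genes by start site (29.2% against 24.6%), by high-coordinate end (29.0% against 24.2%) and with lengthened LADs (32.3% against 29.4%). The Gs count rests on Htr7 and the Gq count on Chrm3 and Htr2c, and a LAD border crosses Htr7 and Htr2c. These are counts over few genes set beside the same background of 24.6%, and no difference between families or kinds was tested.

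**Figure D1:**
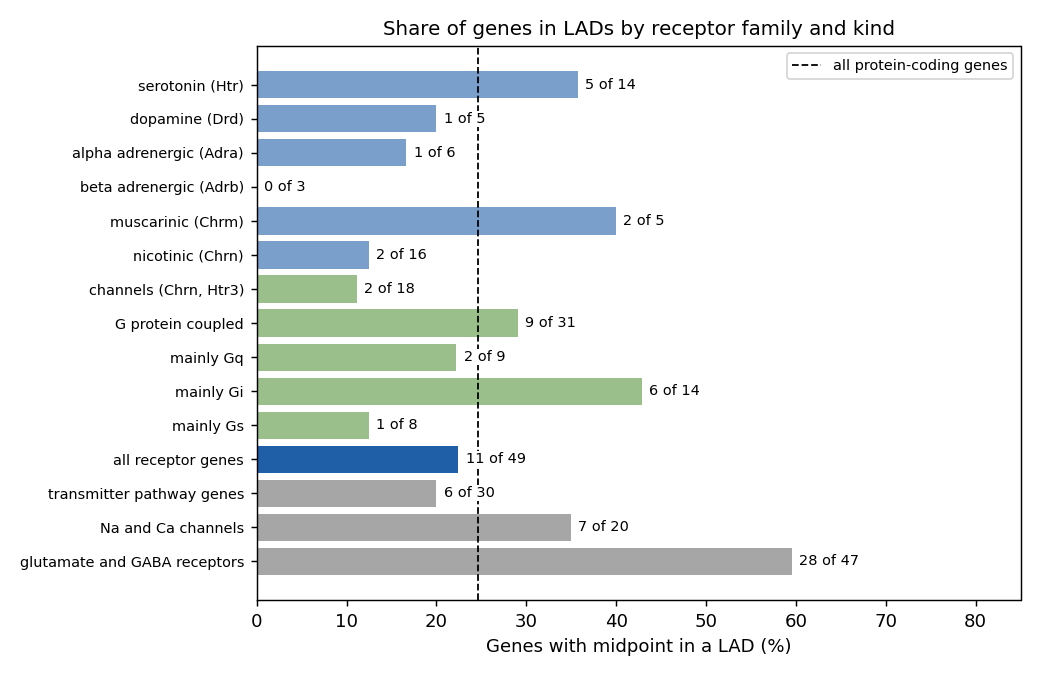
Share of genes with their midpoint in a LAD, in percent, for each receptor family (light blue), each kind of receptor (green), all 49 receptor genes (dark blue) and 3 other gene lists (grey); the dashed line is the 24.6% of all protein-coding genes and the text beside each bar gives its count. The 22.4% of all receptor genes lies near the dashed line, the Gi-coupled receptors reach 42.9%, and the glutamate and GABA receptors reach 59.6%.

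Serotonin receptors held both extremes of the whole set. Htr1b, the receptor that restrains serotonin release at nerve terminals, lay deepest of all 49 genes, at 1178 kb from the nearest border of a LAD of 2612 kb on chromosome 9 (80196332 to 82808822). Htr1d, a close relative with the same coupling, lay farthest from any LAD, at 4776 kb from the nearest one, in a LAD-free gap of 10512 kb on chromosome 4 (131658007 to 142170473). That gap held 205 protein-coding genes, whereas the LAD of Htr1b held 4, the others being Myo6, Impg1 and Mei4. Htr1a, the autoreceptor of serotonin neurons, was 480.4 kb inside a LAD of 1892 kb on chromosome 13 (104965510 to 106858003). Htr1f, another Gi-coupled member, had its midpoint 58.3 kb inside a LAD of 812.5 kb on chromosome 16 (64956962 to 65769459). A LAD border crosses Htr1f, which had 82.2% of its length inside, so Htr1f was not in a LAD as a whole gene or by its low-coordinate end.

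The promoters of Htr1b and Htr1d are shown because the genes mark the 2 ends of the range. Each covers 250 bases before and 50 after the first start site listed by RefSeq (GRCm38.p6), 5′ to 3′ on the strand of the gene, with CG dinucleotides in capitals. The promoter of Htr1b is at chr9:81633783-81634082 on the minus strand and that of Htr1d at chr4:136423274-136423573 on the plus strand.
Htr1b: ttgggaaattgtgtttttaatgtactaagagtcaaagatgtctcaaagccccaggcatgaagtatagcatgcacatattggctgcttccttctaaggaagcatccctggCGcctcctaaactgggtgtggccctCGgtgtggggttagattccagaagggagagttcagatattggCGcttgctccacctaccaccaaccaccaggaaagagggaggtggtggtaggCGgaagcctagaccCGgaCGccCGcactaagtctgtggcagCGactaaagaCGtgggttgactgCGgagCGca
Htr1d: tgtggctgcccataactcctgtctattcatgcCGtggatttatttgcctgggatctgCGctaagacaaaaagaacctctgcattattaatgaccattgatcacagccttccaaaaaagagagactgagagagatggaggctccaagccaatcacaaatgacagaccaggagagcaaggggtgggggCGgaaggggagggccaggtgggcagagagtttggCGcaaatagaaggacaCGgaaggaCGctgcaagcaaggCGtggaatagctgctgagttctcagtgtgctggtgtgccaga
The Htr1b promoter, inside the LAD, held 11 CG at a GC content of 53.3%, and the Htr1d promoter, far outside, held 7 CG at 52%. A second start site is listed for Htr1d, whose promoter held 28 CG.

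The Gq-coupled Htr2 genes were split. Htr2c, which is on X and is known for its expression in the choroid plexus, lay with 95.1% of its 234.8 kb in a LAD of 577.5 kb (146973865 to 147551362). The border fell 11.4 kb from the low-coordinate end of the gene, and the listed start site was 11.4 kb outside the LAD. Htr2a, the receptor through which classical hallucinogens act, was 2390 kb from the nearest LAD on chromosome 14. Htr2b, known in heart valve cells and other fibroblast-like cells, was 424.7 kb away on chromosome 1. The same kind of split was seen among the Gs-coupled receptors. Htr7 had 75.3% of its 99.7 kb in a LAD of 695.0 kb on chromosome 19 (35338479 to 36033476) and was its only protein-coding gene, whereas its start site lay 23.9 kb outside. Htr6 was 3103 kb from a LAD, in the same gap as Htr1d. Of the remaining serotonin genes outside LADs, Htr5b was the nearest to one, at 95.1 kb, Htr3b and Htr3a were at 233.9 and 278.7 kb, and Htr5a was at 243.7 kb.

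Of the dopamine receptor genes, Drd2 was the one in a LAD. Drd2 encodes the Gi-coupled receptor of the striatal indirect pathway and the target of antipsychotic drugs. All of its 67.8 kb lay in a LAD of 237.5 kb on chromosome 9 (49183930 to 49421428), the shortest of the 11 LADs that held a receptor gene. Its midpoint was 47.2 kb from a border, and the LAD also held Ankk1 and Gm4894. Drd1, the Gs-coupled receptor of the striatal direct pathway, was 2882 kb from the nearest LAD, the fourth most distant gene of the set. Drd3 and Drd5 were 797.0 and 593.7 kb away. Drd4 was at 489.5 kb, in a gap of 1992 kb with 80 protein-coding genes.

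Of the 9 adrenergic receptor genes, 1 was in a LAD, Adra2a, the presynaptic receptor that limits noradrenaline release. The whole gene of 3.72 kb lay just inside the border of a LAD of 1127 kb on chromosome 19 (54043420 to 55170915), with the midpoint 3.70 kb and the start site 1.84 kb inside. Every LAD length was a multiple of 2.5 kb to within 36 bp, so this position is at the limit of what the borders can resolve. The relatives of Adra2a were 2326 kb (Adra2b) and 3635 kb (Adra2c) from a LAD. The Gq-coupled Adra1 genes, which drive contraction of vascular smooth muscle, were 467.4 kb (Adra1b), 1453 kb (Adra1d) and 1510 kb (Adra1a) away. Of the beta receptors, Adrb3, of brown and white fat, was 179.8 kb and Adrb1, of the heart, 1553 kb away.

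**Figure D2:**
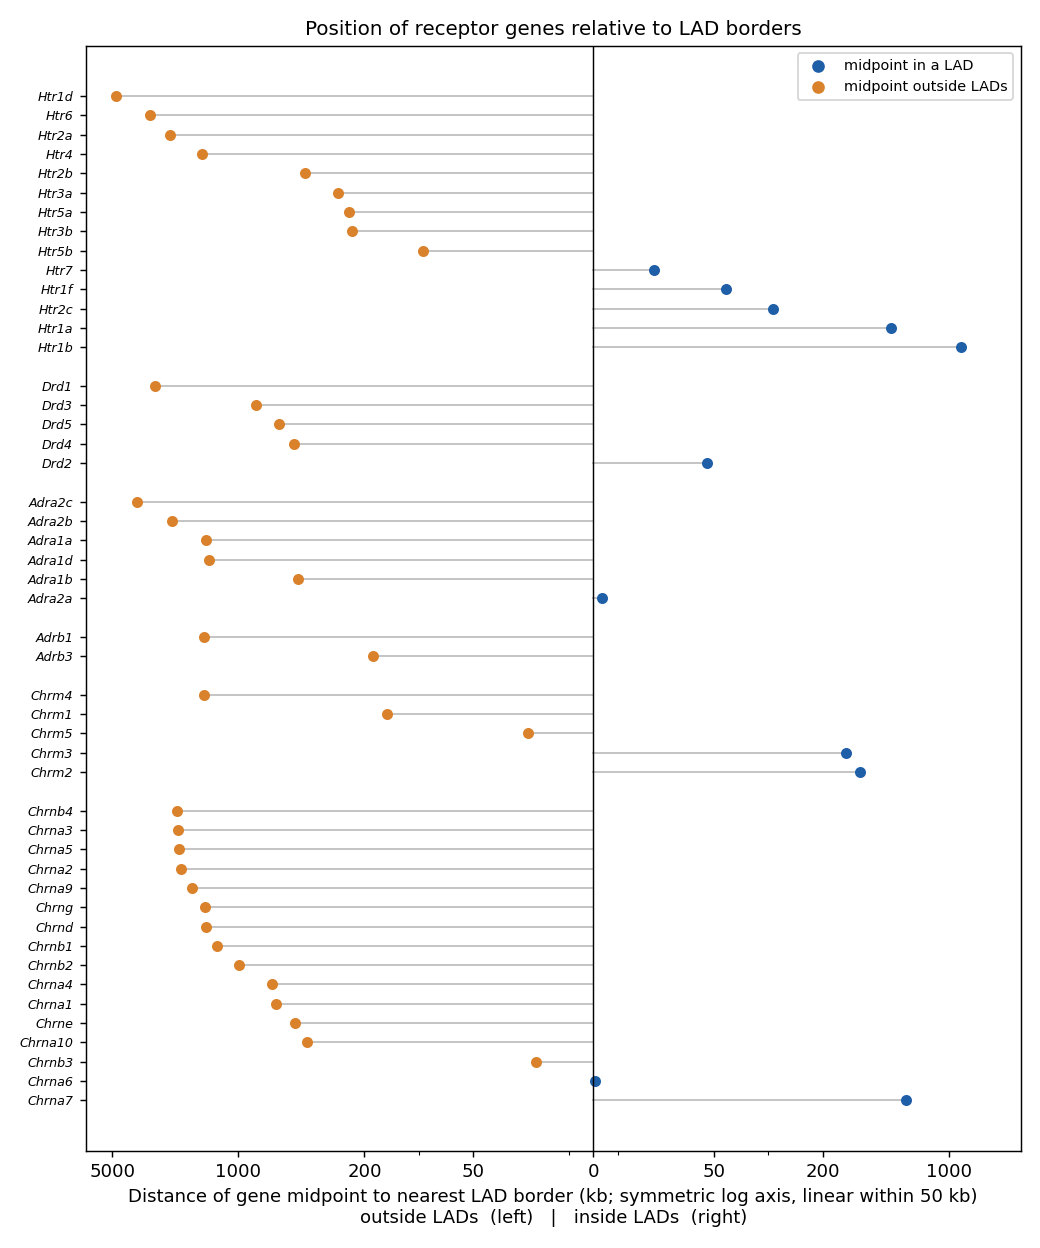
Distance in kb from the midpoint of 48 of the 49 receptor genes to the nearest LAD border, on a symmetric log axis that is linear within 50 kb of the border; genes outside LADs extend to the left (orange) and genes inside to the right (blue), grouped by family. Htr1b lies deepest inside (1178 kb) and Htr1d farthest outside (4776 kb), and 6 genes lie within 50 kb of a border.

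Of the muscarinic genes, 1 coupled to Gi and 1 coupled to Gq lay in LADs. Chrm2, the Gi-coupled receptor that slows the heart, lay wholly inside a LAD of 1135 kb on chromosome 6 (35644535 to 36779530), 321.2 kb from its border and with Ptn as the other protein-coding gene of that LAD. Chrm3, the Gq-coupled receptor of glands and smooth muscle, is the longest gene of the set at 485.6 kb. It lay wholly inside a LAD of 2292 kb on chromosome 13 (9848311 to 12140803), whose other protein-coding gene was Ryr2. Its midpoint was 270.0 kb and its start site 512.5 kb inside. The Gi-coupled Chrm4, abundant in the striatum, was 1559 kb outside, and the Gq-coupled Chrm1 of the cortex was 150.2 kb outside. Chrm5 was crossed at its very end: a LAD of 752.5 kb on chromosome 2 began 1.81 kb before the high-coordinate end of the gene and took in 3.14% of its length. The gene is on the minus strand, so the covered end is its upstream end. The start site listed for Chrm5 lies near the other end, 53.7 kb outside the LAD, and so does not mark the upstream end of the gene.

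Among the nicotinic subunit genes, Chrna7 was the one well inside a LAD. It encodes the subunit of the homomeric alpha7 channel, and its 113.8 kb lay wholly in a LAD of 1302 kb on chromosome 7 (62432430 to 63734925), 579.3 kb from the border, with Otud7a, Peg12 and A26c2. The genes of the muscle receptor at the neuromuscular junction were all outside LADs. Chrna1 was at 620.4 kb, Chrnb1 at 1310 kb, Chrnd at 1513 kb and the embryonic subunit Chrng at 1527 kb. Chrne, which replaces Chrng after birth, was at 483.4 kb. Of the 11 neuronal subunit genes, 9 were outside. The subunits of the main high-affinity nicotine receptor of the brain, Chrna4 and Chrnb2, were at 653.9 and 989.3 kb, and those of the cochlear efferent synapse, Chrna9 and Chrna10, at 1803 and 415.7 kb. Chrna2 was at 2071 kb. The ganglionic cluster of Chrna5, Chrna3 and Chrnb4 lay between 2130 and 2172 kb from the nearest LAD.

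The promoters of Chrna7 and Chrnb4 are shown as the ends of the range among the 18 channel genes, with the same window, source and capitals as above. That of Chrna7 is at chr7:63212477-63212776 and that of Chrnb4 at chr9:55048495-55048794, each on the minus strand.
Chrna7: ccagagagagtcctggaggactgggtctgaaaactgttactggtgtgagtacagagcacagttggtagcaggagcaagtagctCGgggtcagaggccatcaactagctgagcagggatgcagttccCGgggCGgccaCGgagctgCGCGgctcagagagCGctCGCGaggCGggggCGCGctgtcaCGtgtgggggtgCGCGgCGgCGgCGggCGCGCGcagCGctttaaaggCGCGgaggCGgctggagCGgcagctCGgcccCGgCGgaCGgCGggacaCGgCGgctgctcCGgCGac
Chrnb4: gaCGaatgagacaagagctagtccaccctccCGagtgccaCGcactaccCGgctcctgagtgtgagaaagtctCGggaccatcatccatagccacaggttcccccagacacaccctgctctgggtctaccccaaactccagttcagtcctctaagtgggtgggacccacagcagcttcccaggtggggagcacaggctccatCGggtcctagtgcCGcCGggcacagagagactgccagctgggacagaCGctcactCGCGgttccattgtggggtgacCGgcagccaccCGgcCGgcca
The Chrna7 promoter, 522.4 kb inside its LAD, held 35 CG at a GC content of 70%. The Chrnb4 promoter, 2182 kb outside, held 14 CG at 63%.

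Several receptor genes are neighbours and do not count as separate placements. Taking genes with midpoints within 250 kb of each other as 1 locus gave 42 loci, of which 11 had a gene in a LAD; no share by locus was computed over all genes. A LAD border ran through 1 of the 5 loci with several genes. On chromosome 8, Adrb3, Chrnb3 and Chrna6 lie in a row, and a LAD of 3560 kb (27408121 to 30968109) began inside Chrna6. Chrnb3 and Chrna6, whose products join in nicotinic receptors of dopamine neurons, are 3.48 kb apart. Chrnb3 was wholly outside with its midpoint 23.9 kb from the border, whereas 54.3% of Chrna6 was covered. The midpoint of Chrna6 was 0.457 kb inside, which is less than the 2.5 kb step of the list, so its call is not secure. The other 4 loci lay wholly outside LADs, among them Chrnd with Chrng, Htr3a with Htr3b, and the cluster of Chrna5, Chrna3 and Chrnb4. Htr4, a serotonin receptor of gut motility, was 1588 kb from a LAD. On chromosome 9, Htr3a and Htr3b were in the gap next to the LAD of Drd2, with 375.4 kb between Htr3b and Drd2. On chromosome 19, Adra2a lay at the low-coordinate border of its LAD, and Adrb1 lay 1553 kb beyond the other border of the same LAD.

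Some receptor genes outside LADs shared a gap. The 37 genes between 2 LADs were spread over 25 gaps, and 22 of them shared a gap with another receptor gene, in 10 gaps. The 22 include close neighbours such as Chrnd and Chrng, and sharing of gaps was not computed for other sets of genes. Htr2b, Chrnd and Chrng were in a gap of 8427 kb on chromosome 1. Chrna2 and Adra1a shared one of 8097 kb on chromosome 14, Adra2c and Drd5 one of 9722 kb on chromosome 5, and Adra2b and Adra1d one of 7967 kb on chromosome 2. The ganglionic cluster lay in a gap of 15147 kb on chromosome 9 with 182 protein-coding genes. The gap around a receptor gene had a median length of 4897 kb, against 3960 kb around all protein-coding genes outside LADs. Of the receptor genes, 86.5% were in gaps of at least 1000 kb, against 84.3% of all such genes.

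**Figure D3:**
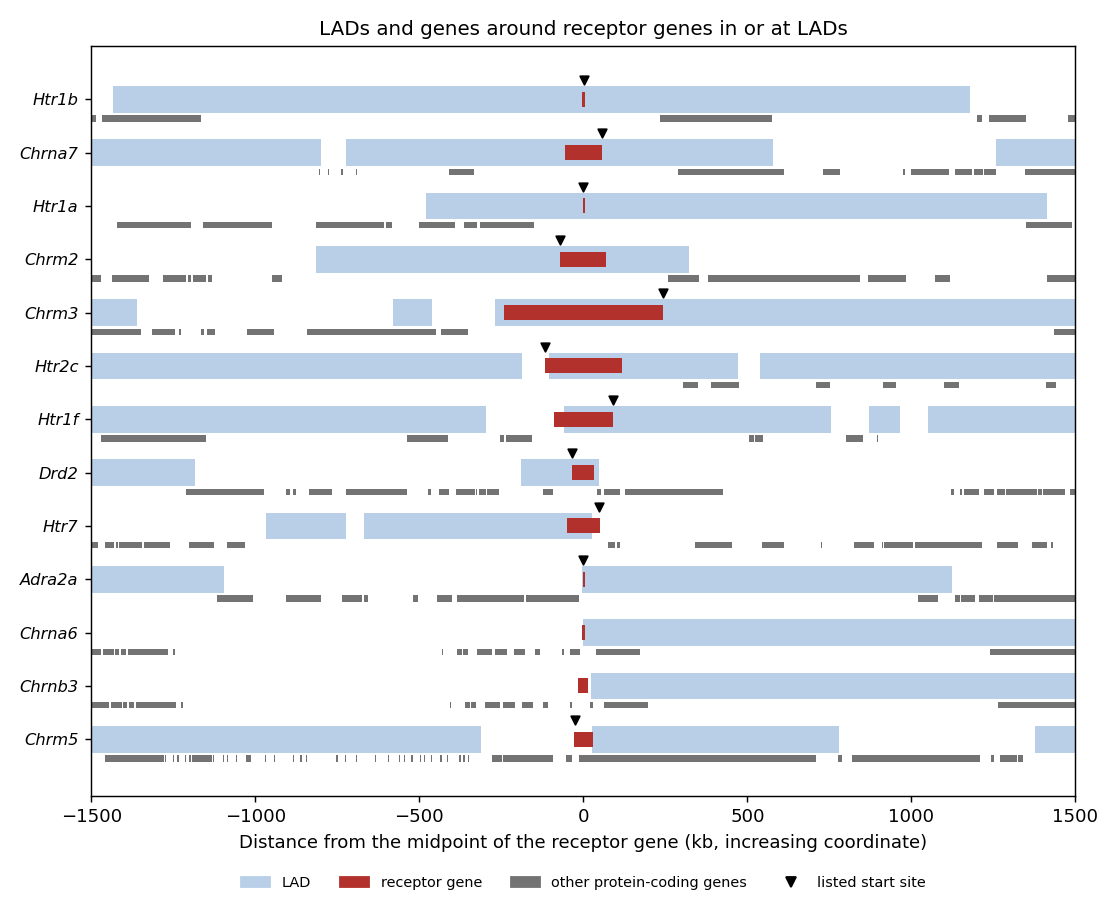
LADs (pale blue) and genes within 1500 kb of the midpoint of 13 receptor genes, which are the 11 with their midpoint in a LAD, Chrm5 and Chrnb3; the receptor gene is red, other protein-coding genes are thin grey bars below it, and a triangle marks the first listed start site where RefSeq lists one. Borders run through Htr2c, Htr1f, Htr7, Chrna6 and the end of Chrm5, and Chrnb3 ends 8.39 kb from the LAD that begins in Chrna6.

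Receptor genes in LADs lay nearer to a border than genes in LADs in general, and those outside lay farther from one, by their medians. Inside, the 11 midpoints had a median depth of 106.0 kb (quartiles 36.2 and 400.8 kb), against 307.7 kb (quartiles 106.4 and 721.4 kb) for all protein-coding genes in LADs. Outside, the median over the 38 midpoints was 1382 kb (quartiles 435.3 and 2004 kb), against 759.6 kb (quartiles 250.3 and 1733 kb) for all genes outside. Of those 38 genes, 20 (52.6%) were over 1000 kb from a LAD, against 41.9% of all genes outside. At the other end, 6 of the 49 (12.2%) lay within 50 kb of a border, against 8.05% of all genes. These were Chrna6, Adra2a, Chrnb3, Htr7, Chrm5 and Drd2.

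The LADs that held receptor genes had few other genes. Each of the 11 contained between 1 and 5 protein-coding genes, with a median of 3. Over all protein-coding genes in LADs the median number in the same domain was 14, or 8 without olfactory and vomeronasal receptors, and 29.9% of all protein-coding genes in LADs were in domains with at most 5. The 11 LADs measured from 237.5 to 3560 kb with a median of 1135 kb, against a median of 1785 kb over all protein-coding genes in LADs. Within 500 kb on either side of the midpoint, receptor genes in LADs had a median of 3 other protein-coding genes and those outside 14.5. The same medians over all protein-coding genes were 12 and 16, or 8 and 15 without olfactory and vomeronasal receptors. Similar medians were seen for the glutamate and GABA receptor genes (2 inside and 19 outside) and the sodium and calcium channel genes (4 and 19). Htr1b, Chrm2 and Chrm3 had 1 such neighbour each, and Chrnb1, outside, had 63.

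Receptor genes inside LADs were longer than those outside, with medians of 99.7 and 16.8 kb. Over all protein-coding genes the order was the reverse, with 10.2 kb inside and 19.0 kb outside, which includes the many short olfactory receptor genes. Without olfactory and vomeronasal receptors the medians of all genes were 20.7 and 19.3 kb. The glutamate and GABA receptor genes were also longer inside LADs, with medians of 298.2 kb inside and 28.3 kb outside, as were the voltage-gated sodium and calcium channel genes, with 146.7 and 110.9 kb. Of the 8 receptor genes of 100 kb or more, 5 were in LADs, against 34.4% of 2382 protein-coding genes of that length. Those outside were Htr4, Adra1a and Adra1b. Of the 7 receptor genes of 20 to 50 kb none was in a LAD, against 17.2% of all genes of that length. Of the 10 receptor genes under 5 kb, 2 were in LADs, Adra2a (3.72 kb) and Htr1a (4.44 kb), against 42.8% of all 4836 genes of that length. Of the 19 genes of 5 to 20 kb, 2 were in LADs, Htr1b (5.54 kb) and Chrna6 (10.7 kb), against 16.4% of all. Of the 5 genes of 50 to 100 kb, 2 were in LADs, Drd2 and Htr7, against 16.1% of all.

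Borders crossed 5 of the 49 receptor genes (10.2%), against 3.47% of all protein-coding genes. Of the 5 genes, 2 were of 100 kb or more, a length at which 16.8% of all genes were crossed, and 2 were of 50 to 100 kb, where 6.21% were. Chrna6, at 10.7 kb, was in a length class with 0.737% crossed. The crossed genes differed in which end was inside. The listed start sites of Htr7 and Htr2c lay outside LADs with most of the gene inside. The start site of Htr1f was 148.8 kb inside, and the border cut off 32.2 kb at its low-coordinate end, which is its downstream end. For Chrna6 the start site was not analysed here.

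A start site was listed for 37 of the 49 genes. It was inside a LAD for 8 of them (21.6%), namely Htr1a, Htr1b, Htr1f, Drd2, Adra2a, Chrm2, Chrm3 and Chrna7. The background by start site was 24.6% of 16985 protein-coding genes. The CG dinucleotide reads the same on both strands. At least 1 CG was found in 94.7% of the 16985 promoters of 300 bases, so its number was compared and not its presence. Promoters of the 8 receptor genes inside held between 7 (Htr1a) and 35 (Chrna7) CG, with a median of 14.5. In Chrm3 and Htr1b it was 11 each, in Htr1f 13, in Chrm2 16, in Drd2 23 and in Adra2a 28. All protein-coding genes with a start site in a LAD had a median of 2 CG and an upper quartile of 7, and without olfactory and vomeronasal receptors a median of 4 and an upper quartile of 11. The 8 values thus lay at or above the upper quartile of all genes in LADs, and 7 of them at or above it without olfactory and vomeronasal receptors, Htr1a being the exception. By midpoint, the median was 13 CG for the 15 glutamate and GABA receptor genes in LADs with a listed promoter, close to the 14.5 of the 10 monoamine and acetylcholine receptor genes counted in that way, and 4 CG for the 6 sodium and calcium channel genes.

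Outside LADs the first listed promoters of receptor genes were poorer in CG than those of genes in general. The 29 receptor promoters there had a median of 7 CG, against 17 for all protein-coding genes outside, and ranged from 1 (Chrne and Chrna10) to 46 (Htr7). The last value belongs to a start site 23.9 kb from a LAD that covers most of the gene. Several start sites are listed for 5 of the receptor genes, Adra1b, Chrna5, Drd1, Htr1d and Htr6, each outside LADs. With the most CG-rich promoter of each gene in place of the first listed, the median outside rose to 14, against 19 for all genes, and the median of the 8 inside was unchanged at 14.5 because each has 1 listed promoter. The low median outside therefore depended on which start site was read. For 5 other genes outside, Htr2b, Drd3, Chrm5, Chrna4 and Chrna9, the 1 listed start site lay between 4.25 kb (Htr2b) and 55.5 kb (Chrm5) downstream of the upstream end of the gene, so a promoter there was not read. None of the 8 start sites inside LADs was over 1 kb from that end. No difference in CG number was tested.

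**Figure D4:**
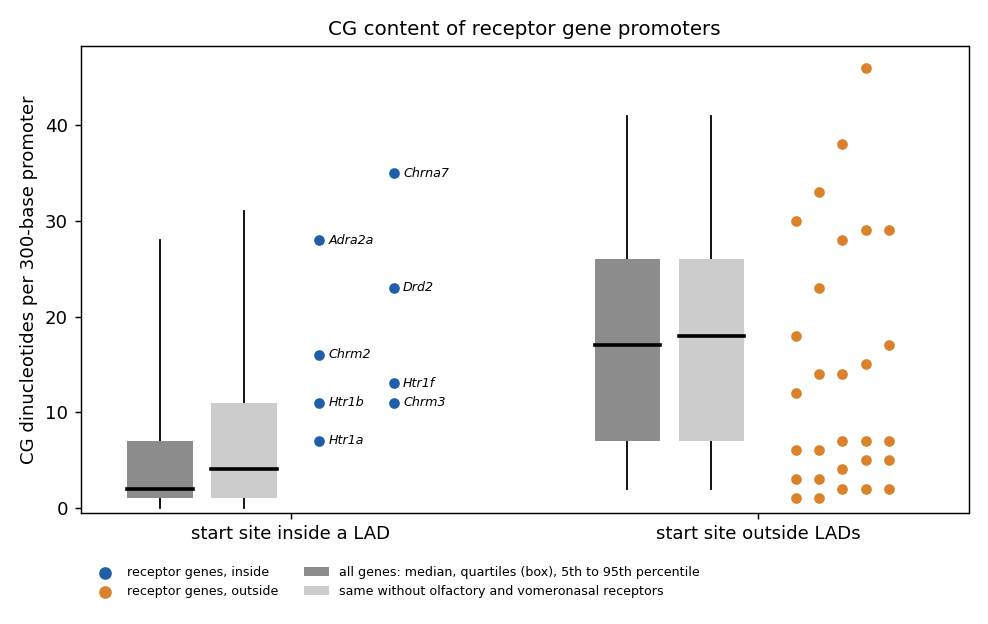
Number of CG dinucleotides in the 300-base promoter by the place of the start site; boxes are the quartiles of all protein-coding genes (dark grey) and of the same without olfactory and vomeronasal receptors (light grey), with the median as a bar and a line from the 5th to the 95th percentile, and points are receptor genes. The 8 receptor promoters inside LADs held 7 to 35 CG, at or above the upper quartile of 7 for all genes inside, and the 29 outside ranged from 1 to 46.

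A list of 30 genes around these receptors was placed in the same way, and 6 (20%) were in LADs, beside the same background of 24.6%. It holds 19 genes that make, move and break down the transmitters, of which 4 (21.1%) were in LADs (a total formed after seeing the data), 6 genes for histamine, a further monoamine, and 5 genes of nicotinic receptor assembly, anchoring or modulation. Of the 7 synthesis genes only Tph2, the tryptophan hydroxylase of serotonin neurons, was in a LAD, at 73.9 kb from its border, whereas Tph1, the form of the gut and pineal gland, was 521.4 kb outside. Of the 7 transporter genes 2 were in LADs: Slc5a7, which takes choline back into cholinergic terminals, at 567.4 kb inside, and Slc6a2, the noradrenaline transporter, at 293.2 kb inside. The serotonin transporter Slc6a4 was 2685 kb and the dopamine transporter Slc6a3 266.8 kb outside. Chat, which makes acetylcholine, and Slc18a3, which loads it into vesicles and lies within the Chat locus, were 2484 and 2458 kb outside. Of the 5 genes of breakdown, Bche (butyrylcholinesterase) was in a LAD, at 1801 kb from its border. Of the 6 histamine genes it was Hnmt, which methylates histamine, at 243.5 kb, and none of the 4 histamine receptor genes was in a LAD. Of the 5 nicotinic assembly genes it was Ric3, a chaperone of Chrna7, at 31.6 kb.

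Other receptors and channels of excitable cells gave higher shares. Of 47 glutamate and GABA receptor genes, 28 (59.6%) had their midpoint in a LAD, and of 20 voltage-gated sodium and calcium channel genes 7 (35%), beside 24.6% of all protein-coding genes. The glutamate and GABA receptor genes were longer, with a median of 183.3 kb against 17.1 kb for the monoamine and acetylcholine receptor genes, and those inside were 759.7 kb from the border at the median, against 106.0 kb. By listed start site the share of glutamate and GABA receptor genes was 40.6% (13 of 32), that of the sodium and calcium channel genes 46.7% (7 of 15), and that of the monoamine and acetylcholine receptor genes 21.6%, beside 24.6% of all. These shares leave out genes without a listed start site. By midpoint, the same genes gave 15 of 32, 6 of 15 and 10 of 37, beside 4278 of 16985 of all. The part of gene length in these differences was not tested, and neither were the differences.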

How the data were processed

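CUT&RUN libraries were made from 500000 cells per reaction, per the labels' protocols. Reads were handled with Bowtie2 and build mm10, per the submitters' processing notes. How domains were called, and whether IgG or spike-in reads entered, is not given in the sources used here. The authors deposited 1 BED list whose values are start and end positions in base pairs. Its score, as deposited, is 0 in all 1437 lines, so it carries no signal. That the list pools both Lamin B1 libraries was read from its name. Single libraries, histone marks and IgG were not analysed here, so depth per sample is unknown.

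Positions were converted to count from 1. A gene is in a LAD when its midpoint is. Gene positions and promoters came from RefSeq tables (GRCm38.p6, which has the mm10 coordinates). A start site, and with it the strand, was listed for 37 of 49 receptor genes, and the first listed was used. The named genes are those with their midpoint in a LAD, crossed by a border, nearest to or farthest from one, or within 250 kb of another; the rest were named after their values were seen. Members and lists were chosen with earlier results of these data known. The descriptions of gene length and CG number were added after the data were seen. Grina, no receptor subunit, was left out of the glutamate and GABA list. Protein sequences were not used here. The values of 1 receptor gene, which stays in the counts, are not reported here. Placement was tested on simulated data. Python 3.11.15, pandas 2.3.3, numpy 2.4.6 and matplotlib 3.10.9 were used. Alternatives changed the point of the gene, the minimum LAD length, the joining of LADs, the borders and the chromosomes.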

Additional observations from a re-analysis of the deposited data

How the results depend on the processing

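Of the 49 receptor genes, Htr1a, Htr1b, Chrm2, Chrm3 and Chrna7 were in a LAD under each of 11 ways of placing genes and LADs, and 36 were outside under each; counts by start site and by autosomes, which leave genes out, are separate. The count of 11 fell to 7 (14.3%) with LADs shortened by 50 kb at both ends, which removed Adra2a, Chrna6, Drd2 and Htr7, and to 7 with the whole gene inside, which removed Chrna6, Htr1f, Htr2c and Htr7. All protein-coding genes gave 21.3% and 22.5% there. With LADs lengthened by 50 kb it was 13 (26.5%, all genes 29.4%). Serotonin receptors went from 5 to 3 by start site (of 11) and by low-coordinate end, and to 2 as whole genes. Dopamine receptors went from 1 to 0 with LADs of at least 500 kb and with shortened LADs, and alpha adrenergic receptors from 1 to 0 with shortened LADs. Nicotinic receptors went from 2 to 1 with shortened LADs, by start site (of 12), by low-coordinate end and as whole genes. The same changes apply to the neuronal nicotinic subunits and to all channel subunits (2 to 1 each, of 8 and 13 by start site). G protein coupled receptors went from 9 to 6 with shortened LADs and as whole genes. Gi-coupled receptors went from 6 to 4 with shortened LADs. Gq-coupled receptors went from 2 to 1 by start site (of 6), by low-coordinate end, as whole genes and on autosomes (of 8). Gs-coupled receptors went from 1 to 0 with shortened LADs, by start site (of 5), by high-coordinate end and as whole genes. Synthesis genes went from 1 to 2 with lengthened LADs, transport genes from 2 to 1 by start site (of 5), and nicotinic assembly genes from 1 to 0 with LADs of at least 500 kb, with shortened LADs and by start site (of 2). Breakdown genes stayed at 1, but of 3 by start site and on autosomes. Glutamate and GABA receptors went from 28 to 13 by start site (of 32), and 15 of those 32 had their midpoint in a LAD. The median distance of receptor genes to a border went from 620.4 to 1178 kb with LADs of at least 500 kb. By construction, shortened LADs, a minimum LAD length and whole genes can only lower a count, and lengthened LADs can only raise it. The direction of the shifts by gene end and by start site was not fixed in this way, and the start site also leaves genes out. The other counts in LADs recomputed for receptor families, receptor kinds, pathway roles and the compared lists stayed within 1.5 times their value; counts by gene length, of crossed genes and by distance were not recomputed. The gene ends, the most CG-rich promoter, the alternatives for receptor kinds and pathway roles, the total over synthesis, transport and breakdown and the separate count of histamine receptors were chosen after seeing the data. No paired analysis was possible because 1 merged list carries no values per replicate, and fits without a Lamin B1 replicate were not run for the same reason. Read depth is unknown, so how far borders such as those at Chrna6 and Adra2a would move with more reads was not tested.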
